A study of Mus musculus with 8 samples.

Results

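The genes described here are the muscle atrophy ubiquitin ligases, the FoxO transcription factors and components of autophagy, measured in the diaphragm of normal and laminin-deficient dystrophic mice. Members were all probe sets annotated to exactly 1 gene symbol among 10 genes, namely Fbxo32, Trim63, Foxo1, Foxo3, Bnip3, Bnip3l, Sqstm1, Gabarapl1, Map1lc3b and Becn1. The rule found 21 probe sets of 8 genes among the 22626 probe sets of the array that are not controls. The platform annotation lists no probe set for Trim63. It assigns 3 probe sets to Bnip3l together with a pseudogene, Bnip3l-ps, so Bnip3l has no value here.

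Diaphragm muscle, which drives breathing, was taken from mice aged 8 weeks. The normal group comprised mice labelled normal. The dystrophic group comprised dy/dy mice, which lack sufficient laminin α2 in the basement membrane around the muscle fibres. Each group had 4 Affymetrix arrays, and each array held a pool of 3 mice, so 12 mice stood behind each group. Strain background and sex are not given in the labels. A pool hides the spread between its mice, and a pool is the replicate in every test below.

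Muscle fibres lose mass when protein breakdown outpaces synthesis. In fasting, denervation and glucocorticoid exposure, FoxO factors enter the nucleus once Akt no longer phosphorylates them, and they raise transcription of the ligases Fbxo32 (atrogin-1, the substrate-binding F-box subunit of an SCF complex) and Trim63 (MuRF1, a RING ligase of sarcomeric proteins). The same factors act on autophagy genes, whose products enclose organelles and protein aggregates in membranes and deliver them to lysosomes. Transcript levels were measured here, not ligase activity or autophagic flux.

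Values are MAS5 signals, in arbitrary linear units, after every array had been brought to the same trimmed mean of 487.7. Differences are given on the scale of log2(signal + 16), with dystrophic above normal as positive. A probe set counted as changed when limma, a linear model with variance shared across probe sets, gave a Benjamini-Hochberg adjusted p below 0.05 over the 13575 probe sets bright enough to be tested. Signals of different probe sets are not on one scale, and levels of different members are not set against each other. Sums of cell type markers add signals of several probe sets and are weighted to the brightest of them.

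Lama2, the gene of laminin α2, averaged 846 ± 101 (SD, n = 4) across normal pools, and 270 ± 46.1 (SD, n = 4) was found for dy/dy (limma adjusted p = 8.91e-04). Skeletal muscle fibre markers were bright on all arrays, with all 10 tested, and their summed signal ranged from 170261 to 269147 in normal and from 170519 to 195448 in dystrophic pools. Summed macrophage markers (10 of 10 on the array) lay at 6074 to 8013 in normal and 10180 to 11048 in dystrophic pools, and fibroblast markers (8 of 8) at 26369 to 31651 and 38815 to 49259. Singly, 1 of 10 fibre, 8 of 9 tested macrophage and 7 of 8 fibroblast markers were higher in dystrophic pools. Of all tested genes 48.5% were higher. limma called 0, 3 and 3 of these markers as higher, where 0.597% of all tested genes were so called. Endothelial markers (6 of 6) lay at 3279 to 3948 and 2760 to 3835, adipocyte markers (4 of 6) at 7305 to 12098 and 8093 to 11540, and erythroid markers (4 of 8) at 325 to 1226 and 498 to 765. Liver markers (7 of 8) summed to 53028 in dystrophic replicate 3 and to between 1128 and 6189 on the other 7 arrays. Poly-A spike-in controls separated the arrays into sets of like signal, where both arrays numbered 1 lay at 543 to 589, both numbered 3 at 307 to 354, and the 4 arrays numbered 2 or 4 at 125 to 172. The 18S ribosomal RNA control was also brighter in replicate 1, at 763 in normal and 471 in dystrophic, than on the other arrays, at 63.4 to 177. In whole muscle RNA, fewer cells of a type and less RNA per cell cannot be told apart.

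Across the members the dystrophic diaphragm gave no call. Of the 21 probe sets 18 were bright enough to be tested, and limma called 0 of them, against 0.494% of all tested probe sets. At an unadjusted p below 0.05 the count was also 0 of 18, where 9.72% of all tested probe sets lay below that level. In 0 of the 18 were the groups free of overlap, a property of 6.4% of all tested probe sets. The 18 log2 differences ran from -0.28 to 0.65 with a median of -0.03, and 8 of the 18 lay above 0. The median over all tested probe sets was -0.01.

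The intervals show which changes these 8 arrays leave room for. For 17 of the 18 probe sets the 95% limma interval of the difference, unadjusted for the number of probe sets, stayed within 2-fold in either direction. It stayed within 1.5-fold for 10 of the 18. The exception at 2-fold was 1 probe set of Foxo3. A p above the threshold does not show that the groups were alike, and smaller differences were not resolved with 4 pools a group.

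**Figure D1:**
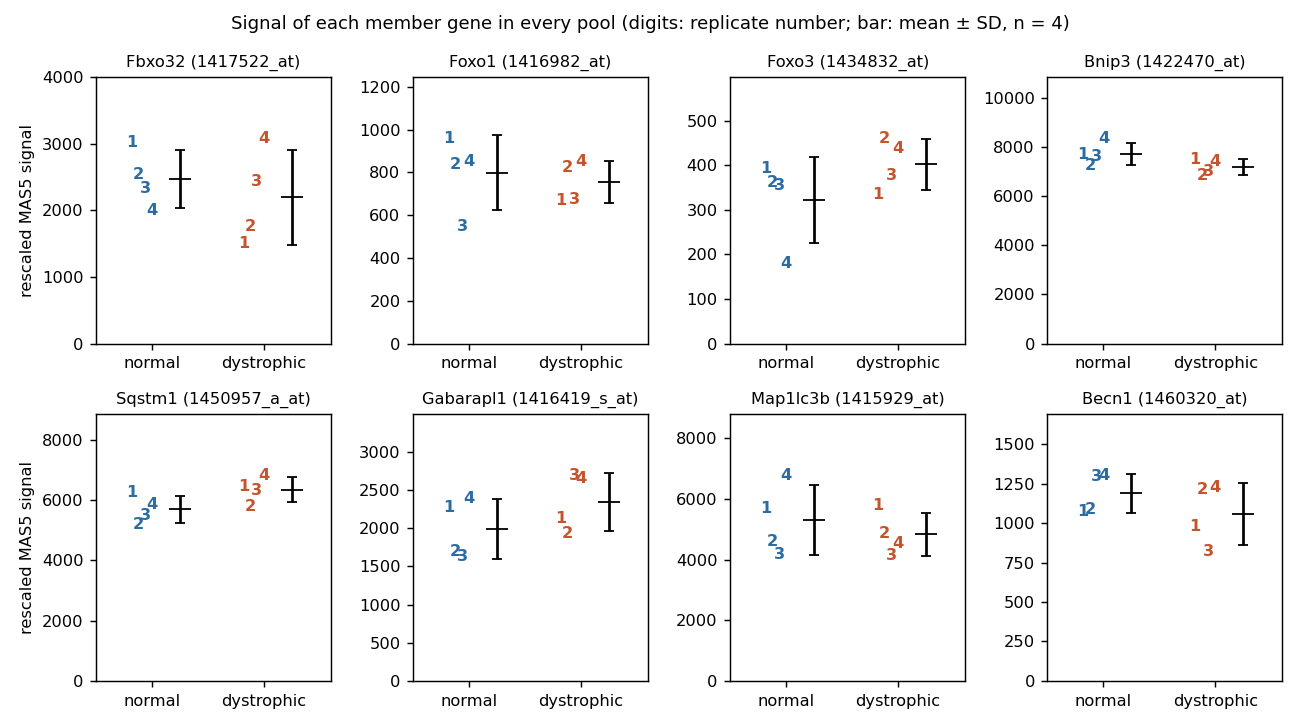
Rescaled MAS5 signal (vertical axis, linear, from 0) of 1 probe set for each of the 8 member genes on the array; every digit is the replicate number of a pool, and bars are mean ± SD (n = 4). Normal and dystrophic pools overlap in all 8 panels, and Fbxo32 spans the widest range within the dystrophic group relative to its mean.

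**Figure D2:**
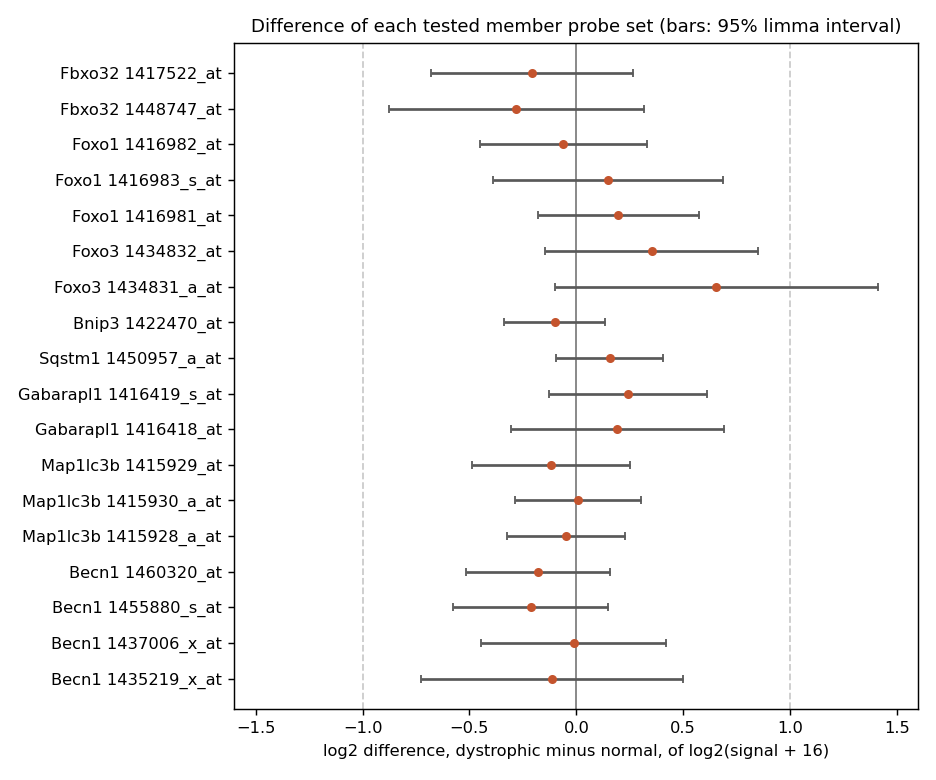
Log2 difference, dystrophic minus normal (horizontal axis), of the 18 tested member probe sets; points are limma estimates, bars 95% intervals, and dashed lines mark 2-fold. Every interval includes 0, and that of the Foxo3 probe set 1434831_a_at alone extends past 2-fold.

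Fbxo32, the atrophy ligase subunit, was measured by a pair of probe sets that gave the same picture. With 1417522_at the signals were 3022, 2536, 2327 and 1993 in normal replicates 1 to 4, and 1496, 1765, 2439 and 3077 in dystrophic replicates 1 to 4. Dystrophic replicates 1 and 2 lay below every normal pool, while dystrophic replicate 4 lay above every normal pool, so the groups overlapped throughout. The log2 difference was -0.21 (SE 0.22, 95% interval -0.68 to 0.27, limma adjusted p = 0.822), with a two-sided exact permutation p of 0.429. With 1448747_at the signals were 2419, 2294, 2124 and 1482 in normal and 981, 1423, 2288 and 2485 in dystrophic replicates 1 to 4. Its log2 difference was -0.28 (SE 0.27, 95% interval -0.88 to 0.32, limma adjusted p = 0.804).

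Over the 8 pools both Fbxo32 probe sets ranked the arrays identically (Spearman rho 1.0, exact permutation p = 4.96e-05; Pearson r 0.957, exact permutation p = 2.48e-05, the smallest that 8 arrays can give). Among the 15 pairs of tested probe sets of the same gene, it was the 1 pair that passed after Benjamini-Hochberg adjustment over those pairs (adjusted exact p = 3.72e-04). With dystrophic replicates 1 and 2 left out, r was 0.874. Both probe sets thus recorded the same spread between pools. On the log2 scale the SD among dystrophic pools was 0.46 for 1417522_at and 0.62 for 1448747_at, at the 92.2 and 96.9 percentiles of all tested probe sets, against 0.25 and 0.32 among normal pools, at the 51 and 68.3 percentiles.

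The size of the Fbxo32 difference depended on which pools were included. Within the spike-in set of replicate 1 the log2 differences of the 2 probe sets were -1.01 and -1.29, and within that of replicate 3 they were 0.07 and 0.11. Within that of replicates 2 and 4 they were 0.05 and 0.03. This last set averaged unlike pools, with 1417522_at at 1765 and 3077 in dystrophic and 2536 and 1993 in normal replicates 2 and 4. Over the arrays left, the 2 differences were -0.04 and -0.03 without dystrophic replicate 1, and -0.12 and -0.20 without dystrophic replicate 2. They were -0.28 and -0.43 without dystrophic replicate 3, and -0.39 and -0.47 without dystrophic replicate 4. Replicate 1, with the largest differences in any set, was also the pair with the bright spike-ins and the bright 18S control given above. The part of these controls in the Fbxo32 values was not tested.

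The 3 genes whose pattern over the 8 arrays was most like that of Fbxo32, among 8213 other tested genes, were Clpx, a mitochondrial unfoldase (Pearson r 0.97, rho 0.976), Kdelr1, a retrieval receptor of the endoplasmic reticulum (r 0.938, rho 0.81), and Pa2g4 (r 0.917, rho 0.952). They are named as a description. These correlations share the arrays and their scaling, and Clpx itself ranged only from 998 to 1186 in normal and from 861 to 1228 in dystrophic pools.

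**Figure D3:**
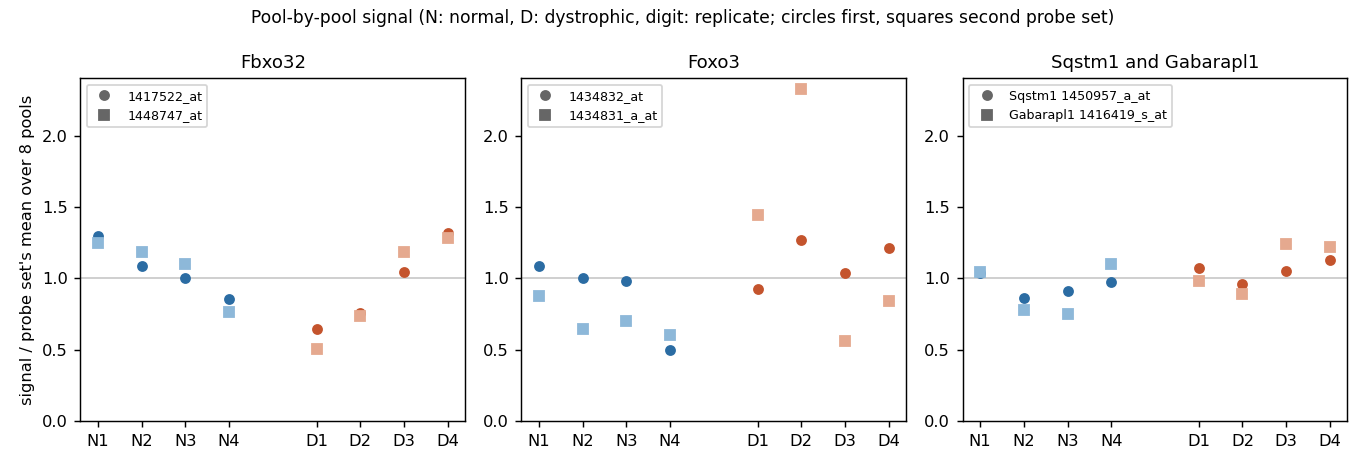
Signal of pairs of probe sets in each pool, divided by that probe set's mean over the 8 pools (vertical axis, linear; N normal, D dystrophic, digit the replicate; circles and squares are the probe sets named in each panel). The pair for Fbxo32 runs together through all pools. The pair for Foxo3 parts in several pools, most widely in dystrophic replicate 2. Sqstm1 and Gabarapl1 are the member genes with the highest correlation.

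Foxo1 and Foxo3 are the FoxO factors with the best described role in muscle wasting. For Foxo1, probe set 1416982_at read 958, 839, 548 and 849 in normal and 668, 825, 671 and 851 in dystrophic replicates 1 to 4. All dystrophic pools lay inside the normal range. The log2 difference was -0.06 (SE 0.18, limma adjusted p = 0.952), with a 95% interval from -0.45 to 0.33. The other tested Foxo1 probe sets, 1416983_s_at at 0.15 (SE 0.24) and 1416981_at at 0.20 (SE 0.17), had the opposite sign and likewise did not pass (limma adjusted p = 0.904 and 0.781). Correlations between the 3 ranged from -0.022 to 0.594 over the 8 pools, none of them past the threshold (lowest adjusted exact permutation p = 0.376). By rank, 1416982_at and 1416983_s_at had the highest agreement (rho 0.738, exact permutation p = 0.0458, adjusted 0.344). The fourth, 1456529_at, read 8.38 to 30.7 in normal and 11.6 to 13.6 in dystrophic pools, no brighter than the TrpnX control probe sets (0.78 to 32.2), and was too dim to be tested.

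Foxo3 held the largest differences among the members, and neither passed. Probe set 1434832_at read 394, 361, 354 and 179 in normal and 335, 460, 376 and 438 in dystrophic replicates 1 to 4. Normal replicate 4 stood below all other pools. The log2 difference was 0.35 (SE 0.23, 95% interval -0.14 to 0.85, limma adjusted p = 0.675, exact permutation p = 0.229), and 0.11 without normal replicate 4. That pool also had the highest summed fibre markers after rescaling, 269147 against 170261 to 204149 in the other normal pools. Rescaling had raised all its signals, from a deposited trimmed mean of 400.2 against 500.2 on the other arrays. A link between the fibre markers and Foxo3 was not tested.

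Probe set 1434831_a_at of Foxo3 read 296, 218, 237 and 203 in normal and 488, 785, 189 and 284 in dystrophic replicates 1 to 4. Dystrophic replicates 1 and 2 lay above all normal pools, whereas replicate 3 lay below them all. The log2 difference was 0.65 (SE 0.34, 95% interval -0.10 to 1.41, limma adjusted p = 0.577, exact permutation p = 0.257). It was 0.32 without dystrophic replicate 2 and 0.97 without dystrophic replicate 3 (limma unadjusted p = 0.00634, adjusted p = 0.35). Both bright Foxo3 probe sets had positive differences, which rested on different pools (r 0.442 between them, exact permutation p = 0.246, and -0.259 without normal replicate 4 and dystrophic replicate 2). Within the spike-in set of replicates 2 and 4, 1434832_at and 1434831_a_at were at 0.78 and 1.11 (limma adjusted p = 0.554 and 0.516). They were at -0.22 and 0.69 within that of replicate 1, and at 0.08 and -0.30 within that of replicate 3. The third, 1450236_at, read 14.2 to 45.9 in normal and 12.9 to 60.6 in dystrophic pools and was too dim to be tested.

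Promoter windows from RefSeq (build GRCm38.p6, 250 bases before to 50 after the gene start) matched 7 of the 10 members: Trim63, Foxo1, Foxo3, Bnip3, Sqstm1, Gabarapl1 and Map1lc3b. They were searched on both strands for the FoxO binding consensus GTAAACA, for its core TAAACA, which lies within the consensus, and for the E-box CACGTG, which contains the core letters of the hypoxia response element. These occur in 3.65%, 13.4% and 7.15% of the 32851 windows in that table. The full consensus was found in 1 of the 7, Trim63, 194 bases before the start. Among members with values, Gabarapl1 held the core and Bnip3 the E-box, and both windows are printed because they are the measured ones with a match. Capitals mark the match, 94 bases before the start in Gabarapl1 (chr6:129532942-129533241, plus strand) and 108 in Bnip3 (chr7:138909457-138909756, minus strand). A match is a run of letters, not a shown binding site.
Gabarapl1: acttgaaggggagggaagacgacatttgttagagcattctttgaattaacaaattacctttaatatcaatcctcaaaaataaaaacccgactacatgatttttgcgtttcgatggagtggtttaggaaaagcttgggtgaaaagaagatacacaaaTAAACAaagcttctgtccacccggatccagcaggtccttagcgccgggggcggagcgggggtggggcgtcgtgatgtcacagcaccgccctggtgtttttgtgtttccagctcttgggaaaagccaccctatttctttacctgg
Bnip3: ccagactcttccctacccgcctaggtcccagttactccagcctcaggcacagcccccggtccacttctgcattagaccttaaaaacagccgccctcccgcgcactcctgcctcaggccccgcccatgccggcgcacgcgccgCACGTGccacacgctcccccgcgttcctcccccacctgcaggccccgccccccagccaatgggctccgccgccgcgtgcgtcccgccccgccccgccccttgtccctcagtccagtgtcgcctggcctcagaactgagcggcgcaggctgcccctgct

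Bnip3 sits in the outer mitochondrial membrane, where it binds LC3 proteins and marks mitochondria for removal by autophagy. Its 1 probe set read 7682, 7237, 7591 and 8330 in normal and 7495, 6829, 7013 and 7384 in dystrophic replicates 1 to 4. Dystrophic replicates 2 and 3 lay below every normal pool, and dystrophic replicates 1 and 4 lay inside the normal range. The difference of -0.10 (SE 0.11, 95% interval -0.34 to 0.13, limma adjusted p = 0.824) is among the most tightly bounded of the members, and as a fold the interval runs from 0.79 to 1.10. Its log2 SD was 0.084 among normal and 0.063 among dystrophic pools, at the 4.4 and 3.2 percentiles of all tested probe sets, a ranking not matched on brightness.

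Sqstm1 (p62) binds ubiquitinated cargo and LC3 at once, and is itself degraded with its cargo. It read 6228, 5199, 5487 and 5857 in normal and 6440, 5787, 6327 and 6792 in dystrophic replicates 1 to 4. Dystrophic replicates 1, 3 and 4 exceeded every normal pool, and dystrophic replicate 2 fell inside the normal range. The log2 difference of 0.16 (SE 0.11, 95% interval -0.10 to 0.41, limma adjusted p = 0.724) had an exact two-sided permutation p of 0.0857, where 4 against 4 cannot go below 0.0286. Each of the 3 spike-in sets gave a positive difference, 0.05, 0.21 and 0.18.

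Gabarapl1 and Map1lc3b encode ubiquitin-like proteins of the ATG8 family, which are attached to lipid in the growing autophagosome membrane. Gabarapl1 probe set 1416419_s_at read 2271, 1688, 1624 and 2389 in normal and 2132, 1924, 2683 and 2648 in dystrophic replicates 1 to 4. Dystrophic replicates 3 and 4 were the highest of the 8 pools. The difference was 0.24 (SE 0.17, 95% interval -0.13 to 0.61, limma adjusted p = 0.704). In the other Gabarapl1 probe set, 1416418_at, the same 2 pools were again highest, at 684 and 816 against 365 to 644 on the remaining arrays, and the difference was 0.19 (SE 0.23, limma adjusted p = 0.85). That value was 0.03 without dystrophic replicate 4 and 0.41 without dystrophic replicate 1.

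Map1lc3b had 3 bright probe sets and 1 dim one. Probe set 1415929_at read 5671, 4600, 4167 and 6753 in normal and 5791, 4857, 4143 and 4538 in dystrophic replicates 1 to 4, a difference of -0.12 (SE 0.17, limma adjusted p = 0.883). Normal replicate 4 was the highest pool in all 3 bright probe sets after rescaling, at 6753, 4466 and 3846. Its deposited trimmed mean was 400.2, against 500.2 on the other arrays, so rescaling raised it. On the deposited scale it was not the highest pool in any of the 3. The differences of 1415930_a_at and 1415928_a_at were 0.01 (SE 0.13) and -0.05 (SE 0.13), with 95% intervals from -0.29 to 0.30 and from -0.32 to 0.23 and limma adjusted p = 0.995 and 0.944. Among dystrophic pools these 2 were nearly constant, at 3358 to 3647 and 2987 to 3190, with log2 SDs at the 1.5 and 0.8 percentiles of all tested probe sets. Among normal pools the SDs were at the 49.3 and 35.8 percentiles, with normal replicate 4 included. The other normal pools spanned 3096 to 3273 and 2764 to 3193. These rankings were not matched on brightness. The dim probe set, 1428024_at, read 10.4 to 15.7 over all pools, within the range of the negative controls.

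Becn1 is a subunit of the lipid kinase complex that starts autophagosome formation. Probe set 1460320_at read 1076, 1089, 1293 and 1298 in normal and 976, 1214, 819 and 1224 in dystrophic replicates 1 to 4. Dystrophic replicates 1 and 3 were below all normal pools. The difference was -0.18 (SE 0.15, 95% interval -0.52 to 0.16, limma adjusted p = 0.776). The other 3, 1455880_s_at, 1437006_x_at and 1435219_x_at, were at -0.21, -0.01 and -0.11, with limma adjusted p = 0.744, 0.993 and 0.942. Correlations between the 4 lay between -0.163 and 0.277 over the 8 pools, and none passed (lowest adjusted exact permutation p = 0.839). By the naming convention of the platform an x suffix marks probes that can bind other transcripts as well.

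Between genes, the 28 pairs of the 8 members gave a median Pearson r of 0.13 over the 8 pools, with 20 of the 28 above 0. By exact permutation 2 pairs had an unadjusted p below 0.05, and 0 passed adjustment over the 28. Sqstm1 and Gabarapl1 had r 0.844 (exact permutation p = 0.00995, adjusted 0.218) and rho 0.762 (exact permutation p = 0.0368, adjusted 0.957). Their r was 0.733 without normal replicate 2 and dystrophic replicate 4, and 0.803 between deviations from the group means. Foxo3 and Bnip3 had r -0.823 (exact permutation p = 0.0156, adjusted 0.218) and rho -0.619 (exact permutation p = 0.115, adjusted 0.957), a relation that rested on normal replicate 4 and dystrophic replicate 2, without which r was -0.044. It also depended on the scaling, with r -0.115 after quantile normalization and 0.494 on the values as deposited (exact permutation p = 0.747 and 0.214), where Sqstm1 and Gabarapl1 had 0.80 and 0.752. Fbxo32 against Foxo1 and Foxo3 gave r 0.352 and 0.287 (exact permutation p = 0.397 and 0.516). By rank they gave rho 0.643 and 0.429 (exact permutation p = 0.0962 and 0.299, adjusted 0.957 for each). Without dystrophic replicates 1 and 2, r was 0.409 and 0.845, and between deviations from the group means it was 0.331 and 0.518. The spike-in sets hold 2 or 4 arrays, too few for a correlation within a set.

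Around the members, 4 lists of pathway genes held 136 other genes, 110 of them with a probe set annotated to 1 symbol and 108 with one bright enough to be tested. limma called 0 of the 108, where 0.645% of all tested genes were called, and 0.597% were called as higher in dystrophic pools. At an unadjusted p below 0.05 there were 13 of 108, 7 higher and 6 lower in dystrophic pools, where 10.8% of all tested genes lay below that level. The median log2 difference over the 108 was -0.02, against -0.01 over all tested genes. These lists were described in this way in place of a set test.

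The list of ubiquitin ligases and the ubiquitin system had 20 tested genes, 8 of them above 0, with a median of -0.01. None was called, and 2 had an unadjusted p below 0.05, both lower in dystrophic pools. Its 3 brightest genes were Zfand5, a ubiquitin-binding zinc finger protein, at -0.02 (SE 0.15), the E2 enzyme Ube2b at -0.48 (SE 0.16), and the HECT ligase Nedd4 at 0.06 (SE 0.11). Ube2b read 5609, 5957, 5731 and 7275 in normal and 4996, 5169, 3378 and 4237 in dystrophic replicates 1 to 4. Its groups did not overlap, and it did not pass (limma unadjusted p = 0.0104, adjusted p = 0.296). The other gene below 0.05 unadjusted, Ube2d1, also an E2 enzyme and picked after its values had been seen, was at -0.33 (SE 0.12, limma adjusted p = 0.352), with 1479 to 1663 in normal and 1105 to 1321 in dystrophic pools.

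In the list of FoxO factors, their regulators and genes responsive to fasting or glucocorticoid, 25 genes were tested, 15 lay above 0 and the median was 0.08. It held 6 of the 13 genes with an unadjusted p below 0.05, 5 of them higher and 1 lower. Of its 3 brightest genes, Pdk4, which blocks entry of pyruvate into the mitochondrial oxidation pathway and is a FoxO target, read 8486, 10557, 8065 and 10756 in normal and 6493, 8422, 5083 and 9789 in dystrophic replicates 1 to 4, a difference of -0.38 (SE 0.20, limma adjusted p = 0.572). Cebpb was at -0.05 (SE 0.19, limma adjusted p = 0.964). Mt1, a metallothionein, read 3011, 3425, 2597 and 7386 in normal and 5140, 8086, 7483 and 7267 in dystrophic pools, a difference of 0.88 (SE 0.28, limma adjusted p = 0.288). Normal replicate 4 alone among normal pools reached the dystrophic values, and without it Mt1 passed, at 1.20 (limma adjusted p = 0.0131). With any 1 other array left out Mt1 did not pass (limma adjusted p from 0.237 to 0.541).

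The remaining genes of that list with an unadjusted p below 0.05 were picked after their values had been seen. They were Mt2 at 1.19 (SE 0.32), Fkbp5, a glucocorticoid-induced chaperone, at 0.84 (SE 0.29), the stress gene Gadd45a at 0.71 (SE 0.16), the translation repressor Eif4ebp1 at 0.52 (SE 0.16) and the kinase Sgk1 at -0.66 (SE 0.27). Gadd45a came nearest to the threshold (limma adjusted p = 0.0979), with 183, 242, 194 and 223 in normal and 307, 332, 347 and 435 in dystrophic replicates 1 to 4. Its groups did not overlap, and within the 3 spike-in sets its difference was 0.70, 0.79 and 0.68. Sgk1, a kinase related to Akt that responds to glucocorticoid, read 2241, 4552, 3325 and 3920 in normal and 1297, 2612, 2048 and 3019 in dystrophic pools (limma adjusted p = 0.456). Within the spike-in sets its difference was -0.78, -0.70 and -0.59, and with the set as a block it passed (limma adjusted p = 0.0338). Fkbp5 read 2360 in normal replicate 1 and 843 to 1238 in the other normal pools, against 1711 to 2775 in dystrophic pools. Over all arrays it did not pass (limma adjusted p = 0.334, exact permutation p = 0.0857). Of the alternatives, it passed only without normal replicate 1 (1.15, limma adjusted p = 0.0448), the normal pool inside the dystrophic range. Within the spike-in set of replicate 1 Fkbp5 was at -0.46.

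Genes of autophagy initiation, membrane nucleation and LC3 conjugation numbered 31 tested, 16 of them above 0, with a median of 0.07. None was called. Its 3 brightest were Sh3glb1, a membrane-curving partner of the Becn1 complex, at 0.09 (SE 0.12), the ATG8 protein Gabarap at 0.08 (SE 0.15), and Map1lc3a, a close relative of Map1lc3b, at 0.42 (SE 0.28, limma adjusted p = 0.687). Map1lc3a read 4854, 4254, 2746 and 1744 in normal and 4729, 3647, 3549 and 5251 in dystrophic replicates 1 to 4, and only normal replicates 3 and 4 lay below the dystrophic range. Its difference was 0.14 without normal replicate 4 and 0.63 without normal replicate 1. The 2 genes with an unadjusted p below 0.05, also picked after their values had been seen, were the kinases that start autophagy, Ulk1 at -0.42 (SE 0.16, limma adjusted p = 0.439) and Ulk2 at -0.32 (SE 0.14, limma adjusted p = 0.499).

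The list of autophagy receptors, mitophagy and lysosomal fusion had 32 tested genes, 11 above 0, and a median of -0.05, with none called. Its brightest were the lysosomal membrane protein Lamp1 at -0.18 (SE 0.15), the protease Ctsd at 0.07 (SE 0.19) and the unfoldase Vcp at 0.04 (SE 0.14). Ctsb and Ctsl, lysosomal proteases that macrophages also make, were at 0.30 (SE 0.11) and 0.29 (SE 0.13), with limma adjusted p = 0.374 and 0.509. Ctsb read 4555 to 5575 in normal and 6128 to 6392 in dystrophic pools, so its groups did not overlap. The summed macrophage markers did not overlap between the groups either, and their part in the cathepsin values was not tested. The mitophagy receptor Fundc1 was at -0.45 (SE 0.18, limma adjusted p = 0.449), with 963 to 1527 in normal and 763 to 1083 in dystrophic pools. These 3 were also picked after their values had been seen.

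**Figure D4:**
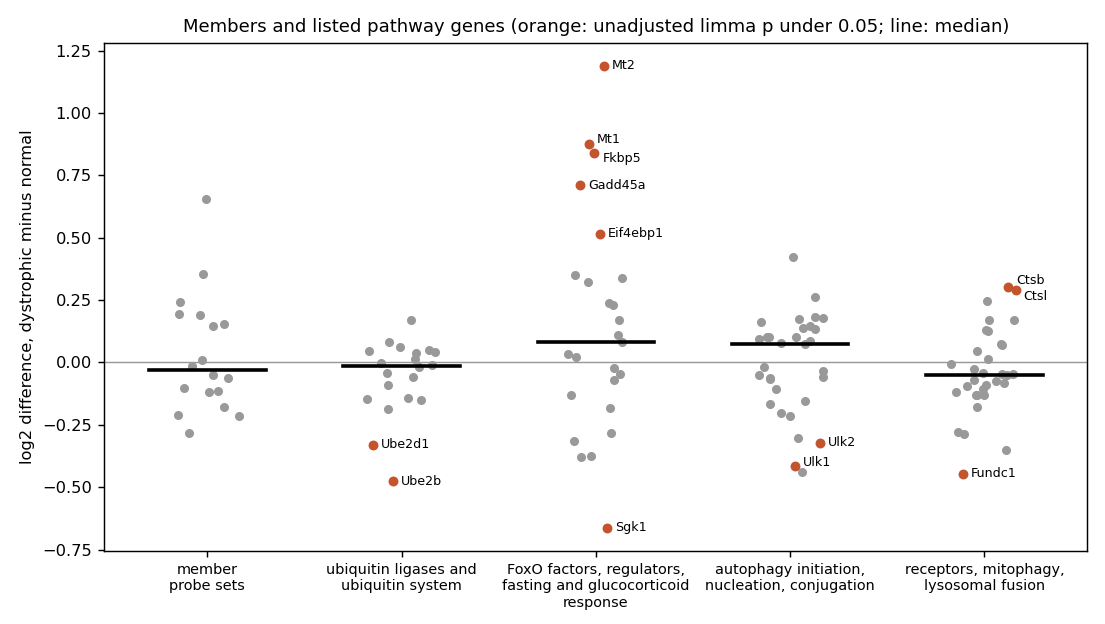
Log2 difference, dystrophic minus normal (vertical axis), of the 18 tested member probe sets and of the tested genes of the 4 lists (1 point each, spread sideways for legibility; horizontal lines are medians). Orange points have an unadjusted limma p below 0.05; there are 0 among the members and 13 among the 108 listed genes, and 0 of the 18 and 0 of the 108 passed after adjustment.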

How the data were processed

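RNA of 8 diaphragm pools was hybridised to Affymetrix mouse arrays. The authors deposited signal intensity values on a linear scale for 22690 probe sets, 64 of them controls. Per the submitters' processing notes they come from MAS5, whose version is not given in the sources used here, nor are detection calls. MAS5 scales each array, and the deposited 2% trimmed mean was 500.2 on 7 arrays but 400.2 on normal replicate 4. All arrays were therefore rescaled to 487.7. Values of dim probe sets are noisy, an offset of 16 was added before log2, and the lowest 40% by mean log2 were left out. The number of arrays limits the precision.

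Groups came from the sample titles. limma 3.58.1 in R 4.3.3 compared all tested probe sets (lmFit, eBayes with an intensity trend, Benjamini-Hochberg, threshold 0.05). A gene was represented by its brightest probe set. Correlations used exact permutation in Python 3.11.15, and figures matplotlib 3.10.9. The fit was tested on simulated data.

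Members and lists were chosen with earlier results of these data known. Text names every member probe set, the 3 brightest tested genes and any called gene of each list, and the 3 genes most like Fbxo32 (Trim63 has no probe set). The platform annotation gave 20380 probe sets 1 symbol, 691 several and 1555 none, and 20351 of those with 1 symbol were matched by Entrez identifier to a RefSeq table of GRCm38.p6 for current symbols. The alternatives were other offsets (1 and 64), quantile and 75th percentile scaling, the deposited scale, no filter or a 60% filter, other variance settings, blocks by replicate number or spike-in set, and arrays left out.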

Additional observations from a re-analysis of the deposited data

Results flagged for a closer look

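In 88 groups of 4 pools (44 probe sets in each of normal and dystrophic), 1 pool stood apart from its group in 4 cases by Dixon's test at the 95% level. Chance gives about 1 in 20. Foxo3 1434832_at read 179 in normal replicate 4 and 354 to 394 in the other normal pools. Map1lc3b 1415930_a_at read 4466 in normal replicate 4 and 3096 to 3273 in the others. These are rescaled values, and normal replicate 4 had been scaled up from a trimmed mean of 400.2, against 500.2 elsewhere. On the deposited scale this Map1lc3b gap was smaller. Cebpb read 2217 in dystrophic replicate 1 and 3168 to 3330 in the other dystrophic pools. Lamp1 read 6303 in dystrophic replicate 3 and 7456 to 7603 in the others.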

How the results depend on the processing

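The 18 tested member probe sets had 430 values under the alternatives. Of these, 394 came with a limma test and none passed (lowest adjusted p 0.35), while 36, within replicate 1 or 3 alone, had no test. The other sign was seen in 42 of the 430. The count of member calls was 0 under every alternative that allowed a test. With 4 pools a group, the 95% interval extended beyond 1.5-fold for 8 of the 18, and smaller differences were not resolved for the others either.

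With the replicate number as a block, 0 members and 0 listed genes were called, and 105 of all probe sets against 67 without it. Same-numbered pools had deviations that correlated at 0.484, -0.046, 0.145 and 0.133 for replicates 1 to 4, against at most -0.13, 0.157, 0.127 and 0.161 with another number. Replicate 1 thus matched its own number best, and replicate 3 did so only narrowly. Replicates 2 and 4, which share a spike-in set, did not, so the numbers were not taken to pair all pools. All probe sets called were 127 with array weights, 114 with the spike-in set as a block, 6 within replicates 2 and 4, 31 without both normal replicate 4 and dystrophic replicate 3, and 25 to 61 with 1 array left out. Listed genes called were 1 with array weights (Mt1), 1 with the spike-in block (Sgk1), 1 without both of those arrays (Mt1, at 1.16) and 0 to 1 with 1 array left out. The cause was not tested.

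Differences turned sign as follows, the cause not tested. With the 75th percentile shift, Map1lc3b 1415930_a_at was at -0.01. With array weights, Becn1 1435219_x_at was at 0.00, Ctsd at -0.04, Foxo1 1416982_at at 0.06 and Zfand5 at 0.06. With quantile normalization Zfand5 was at 0.03. On the deposited scale, where the median of all tested probe sets was 0.07, Becn1 1437006_x_at was at 0.06, Cebpb at 0.03, Foxo1 1416982_at at 0.02, Map1lc3b 1415928_a_at at 0.03 and Zfand5 at 0.06.

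Within replicate 1, Becn1 1435219_x_at, 1437006_x_at and 1455880_s_at were at 0.25, 0.58 and 0.18, Foxo1 1416983_s_at at -0.95, Foxo3 1434832_at at -0.22, Gabarapl1 1416418_at and 1416419_s_at at -0.22 and -0.09, Map1lc3a at -0.04, Map1lc3b 1415928_a_at and 1415929_at at 0.21 and 0.03, Vcp at -0.10, Fkbp5 at -0.46 and Ctsl at -0.09. Within replicate 3, Fbxo32 1417522_at and 1448747_at were at 0.07 and 0.11, Foxo1 1416981_at and 1416982_at at -0.09 and 0.28, Foxo3 1434831_a_at at -0.30, Map1lc3b 1415928_a_at at 0.02, Cebpb at 0.25, Ctsd at -0.20, Gabarap at -0.05, Sh3glb1 at -0.13 and Vcp at -0.20. Within replicates 2 and 4, Becn1 1460320_at was at 0.04, Fbxo32 1417522_at and 1448747_at at 0.05 and 0.03, Map1lc3b 1415930_a_at at -0.10, Cebpb at 0.05 and Zfand5 at 0.12.

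Without both normal replicate 4 and dystrophic replicate 3, Becn1 1435219_x_at and 1437006_x_at were at 0.11 and 0.04, Foxo1 1416982_at at 0.03, Lamp1 at 0.00, Map1lc3b 1415928_a_at and 1415929_at at 0.05 and 0.08, and Zfand5 at 0.04, while Map1lc3b 1415930_a_at was at 0.15. With 1 array left out in turn, ranges that crossed 0 were -0.23 to 0.03 and -0.01 to 0.36 for Foxo1 1416982_at and 1416983_s_at, -0.22 to 0.01, -0.05 to 0.13 and -0.12 to 0.04 for Map1lc3b 1415929_at, 1415930_a_at and 1415928_a_at, -0.14 to 0.08 and -0.36 to 0.13 for Becn1 1437006_x_at and 1435219_x_at, -0.09 to 0.10 for Zfand5, -0.17 to 0.11 for Cebpb, -0.01 to 0.18 for Gabarap, -0.09 to 0.17 for Ctsd and -0.04 to 0.14 for Vcp. Of those that kept their sign, Lamp1 ran from -0.28 to -0.06, Foxo1 1416981_at from 0.11 to 0.35, Gabarapl1 1416419_s_at from 0.15 to 0.33, Becn1 1460320_at from -0.25 to -0.06, Becn1 1455880_s_at from -0.36 to -0.10 and Pdk4 from -0.52 to -0.21.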
